A study of Rattus norvegicus with 15 samples.

Results

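Glucocorticoid signalling was followed in 10 genes of the rat ductus arteriosus and aorta around birth: the receptor gene Nr3c1, the hormone-activating enzyme gene Hsd11b1, and 8 genes known to be induced by the receptor (Fkbp5, Glul, Pdk4, Errfi1, Klf9, Cebpb, Cebpd and Sgk1). They were found by symbol among the 10969 genes named on the Affymetrix rat chips A, B and C, at probe sets annotated to 1 gene alone. Of the 26202 probe sets 29 met the rule, and they divided as 20, 5 and 4 over the chips in that order. All 29 kept their gene when matched by gene number to a current RefSeq table. Of these, 23 were above the floor of their chip in at least 1 state, 15 were above it in all 5 states and 6 never were.

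Total RNA of whole vessels was hybridised, 1 array per state and chip, 15 arrays in all. Newborn ductus was taken 3 hours after vaginal delivery. Oxygen-exposed ductus came from fetuses at 19 days of gestation whose dam had breathed 100% oxygen for 3 hours. Fetal ductus came from day 19 fetuses of a normoxic dam, delivered by Cesarean section. Newborn aorta and fetal aorta (arch and thoracic part) were taken at the same ages from the same kinds of animal. No strain, sex, genetic change or drug is given in the labels, and the number of animals behind an array is not stated. Fetal vessels, oxygen-exposed ones included, were dissected in medium gassed with 2.5% oxygen and newborn vessels at 12.5%. No length of gestation is recorded for the newborns, so a birth ratio below also spans an unknown difference in age from day 19. Birth, age, route of delivery and dissecting gas therefore cannot be told apart. The values are signal intensities that the authors had scaled to a common mean (trimmed means of the 15 arrays, 495.2 to 498.3). The floor was the median signal of each chip, 149.8 for A, 241.7 for B and 243.0 for C. In whole vessels, fewer cells of a type and less RNA per cell cannot be told apart.

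Glucocorticoid hormone enters cells freely and binds a receptor that is held in the cytoplasm by Hsp90 and its partners. The bound receptor moves to the nucleus, binds DNA, often far from the gene it acts on, and raises or lowers transcription. The enzyme encoded by Hsd11b1 regenerates active hormone (corticosterone in rats) from its inert keto form inside the cell. Plasma glucocorticoid rises in mammals around birth, and glucocorticoid given before preterm birth matures the lung and is associated with earlier closure of the ductus, the fetal vessel that joins the pulmonary artery to the aorta. The 8 target genes also respond to other signals, among them cyclic AMP, growth factors and fasting, so their RNA alone does not measure hormone action.

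The promoters of Fkbp5, Pdk4, Klf9 and Errfi1 are shown, 4 of the 6 target genes that were at least 2-fold higher in newborn than in fetal ductus. Glul and Cebpb also belong to the 6, but their promoters are not printed here. Fkbp5, Pdk4 and Errfi1 were also at least 2-fold higher in newborn ductus than in newborn aorta. Klf9 and Errfi1 were at least 2-fold higher after birth in both vessels. Each promoter runs from 250 bases before to 50 bases after a RefSeq start (build GRCr8), in the direction of the gene. Capitals mark matches on either strand to 3 motifs. They are the promoter box CCAAT, the cyclic AMP response half-site TGACG, and the box TATAAA, which lies close before the start of many genes. In Klf9 the CCAAT match and one on the opposite strand overlap as CCAATTGG.
Fkbp5, chr20:6543506-6543805, minus strand: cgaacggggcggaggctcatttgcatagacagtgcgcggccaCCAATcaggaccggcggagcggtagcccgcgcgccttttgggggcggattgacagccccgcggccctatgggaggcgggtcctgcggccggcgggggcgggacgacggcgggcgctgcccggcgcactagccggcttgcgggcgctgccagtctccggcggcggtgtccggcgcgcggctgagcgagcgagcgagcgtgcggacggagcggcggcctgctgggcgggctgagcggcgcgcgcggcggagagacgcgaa
Pdk4, chr4:34568280-34568579, minus strand: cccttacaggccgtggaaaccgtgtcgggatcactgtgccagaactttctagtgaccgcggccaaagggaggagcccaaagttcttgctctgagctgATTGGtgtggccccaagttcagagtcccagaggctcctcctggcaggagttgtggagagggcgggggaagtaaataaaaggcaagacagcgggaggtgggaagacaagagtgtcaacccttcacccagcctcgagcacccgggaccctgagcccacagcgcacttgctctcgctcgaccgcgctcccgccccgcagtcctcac
Klf9, chr1:230126396-230126695, plus strand: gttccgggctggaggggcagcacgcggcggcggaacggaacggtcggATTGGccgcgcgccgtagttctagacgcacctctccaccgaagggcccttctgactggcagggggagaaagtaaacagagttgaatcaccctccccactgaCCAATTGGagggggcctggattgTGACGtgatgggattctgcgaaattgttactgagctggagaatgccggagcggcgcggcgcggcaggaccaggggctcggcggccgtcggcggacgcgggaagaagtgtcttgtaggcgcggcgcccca
Errfi1, chr5:166606591-166606890, plus strand: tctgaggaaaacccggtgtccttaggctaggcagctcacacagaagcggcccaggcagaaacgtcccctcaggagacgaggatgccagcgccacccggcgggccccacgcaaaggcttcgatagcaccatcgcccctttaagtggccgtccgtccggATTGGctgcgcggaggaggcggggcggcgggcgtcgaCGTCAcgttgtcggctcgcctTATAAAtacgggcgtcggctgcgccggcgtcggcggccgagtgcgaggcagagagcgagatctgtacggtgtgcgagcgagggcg
The classical palindromic receptor site (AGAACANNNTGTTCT) was found in 0 of 12 promoters of 8 of these 10 genes, against 0.0149% of all 33469 rat promoters of this length in the same table. Its half-site AGAACA, on either strand, was also found in 0 of these 12, against 20.7% of all promoters. The letters TGACG were found in 4 of the 12 (Cebpb, Errfi1, Glul and Klf9), against 21.2% of all. CCAAT was found in 6 of the 12, against 37.5% of all, and TATAAA in 4, against 14.2% of all. The sites of the receptor that act on these genes in other tissues often lie outside such a window, and a missing match says only that the letters are not within it.

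The 10 genes were chosen with earlier results of these data known, so their counts beside those of all genes are a description and not a test. Newborn ductus had more RNA than fetal ductus for 6 of the 8 target genes, between 2.62-fold (Cebpb) and 4.92-fold (Klf9), where 1.72% of all measured genes were 2-fold higher. The receptor gene differed by 1.04-fold. In aorta 4 of the 6 were also at least 2-fold higher after birth, against 2.12% of all genes. Under maternal oxygen 0 of the 9 measured genes were 2-fold apart from fetal ductus, a count close to the background, since 0.469% of all genes were 2-fold higher and 0.858% lower. Fkbp5, Pdk4 and Errfi1 were at least 2-fold higher in newborn ductus than in newborn aorta, and Hsd11b1 had opposite birth differences in the vessels. Each gene is read below at its brightest probe set, ratios are of signals raised to the floor where they were under it, and a fold with an array at the floor is a lower bound. With 1 array per state no single pair of states can be tested. From the residuals of the fit described further on, a log2 ratio of 2 arrays had a typical SD between 0.29 and 0.33, depending on the chip.

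**Figure D1:**
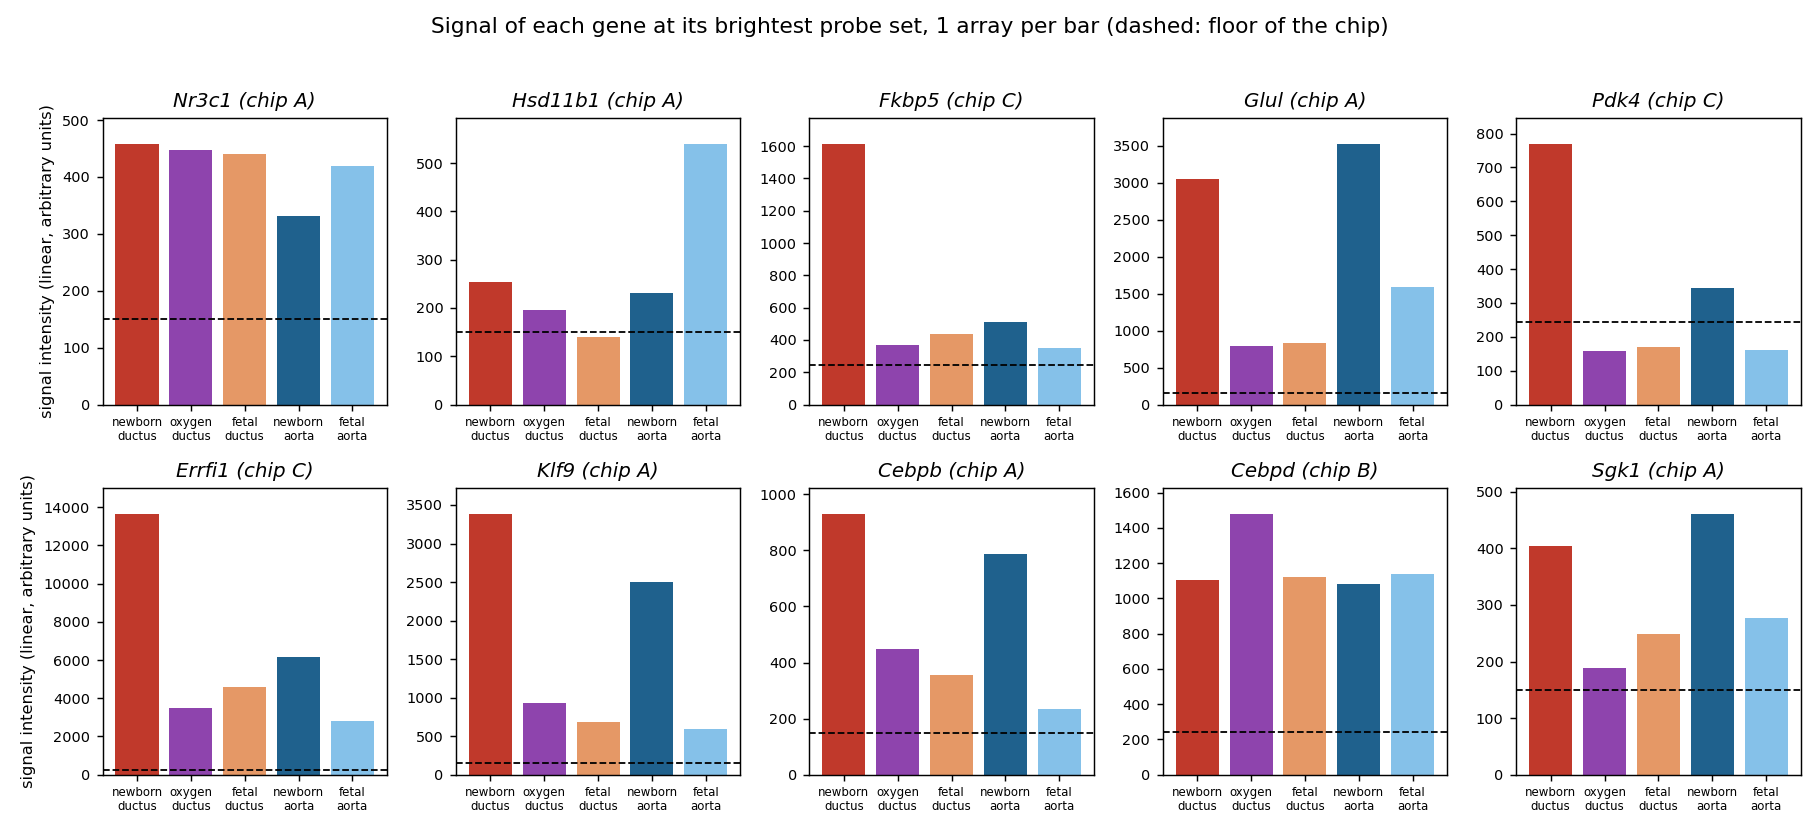
Signal intensity (vertical axis, linear, arbitrary units) of the 10 genes at their brightest probe set, 1 bar per array, in newborn, oxygen-exposed and fetal ductus and in newborn and fetal aorta. Dashed lines mark the floor of the chip. Fkbp5, Pdk4 and Errfi1 stand out in newborn ductus, Glul, Klf9 and Cebpb are high in both newborn vessels, and Hsd11b1 is highest in fetal aorta at 539.2.

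The receptor gene Nr3c1 was measured at signals of 457.5 in newborn ductus, 446.6 in oxygen-exposed ductus, 439.9 in fetal ductus, 331.1 in newborn aorta and 419.9 in fetal aorta. The 3 ductus states were nearly level, and newborn aorta was the lowest. The birth log2 ratio was 0.06 in ductus and -0.34 in aorta, where it was close to 1 SD. A second Nr3c1 probe set, M14053_at, lay just above the floor (150.4 to 202.7) and had its highest value in newborn aorta, so the probe sets disagree on the direction in aorta. The other 3 Nr3c1 probe sets were under the floor in all states. Limma gave Nr3c1 a birth effect over both vessels of -0.14 ± 0.21 (log2, SE), with an adjusted p of 0.78.

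Hsd11b1 was measured by 1 probe set, with signals of 252.9 in newborn ductus, 194.9 in oxygen-exposed ductus, 140.8 in fetal ductus, 230.7 in newborn aorta and 539.2 in fetal aorta. Fetal ductus was under the floor and fetal aorta was more than 2-fold above every other state. The birth difference was at least 1.69-fold higher in ductus and 2.34-fold lower in aorta. With the floor at the 65th percentile of the chip the aortic log2 ratio was -0.86, under the 2-fold mark, and the ductus difference could not be measured. Before birth Hsd11b1 was at least 3.60-fold lower in ductus than in aorta. After birth the vessels differed by 1.10-fold. With opposite directions in the vessels, the fitted birth effect was -0.23 ± 0.41 (log2, SE; limma adjusted p = 0.83). Fetal aorta also had the highest level of the liver and plasma protein list, whose 7 genes summed to 2547 there and to between 704 and 1114 in the other states, with 5 of 7 above the floor against 2 or 3. Alb, the gene of serum albumin, read 496.8 in fetal aorta, against at most 141.7 elsewhere, and liver is rich in Hsd11b1. Summed signals of the red cell, leukocyte and nerve lists were also highest in fetal aorta (60773, 4683 and 4745). The part of such RNA in the Hsd11b1 value was not tested.

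Among the targets, Klf9, which encodes a zinc finger transcription factor, had the largest birth difference at the brightest probe sets. Its signals were 3378.6 in newborn ductus, 930.0 in oxygen-exposed ductus, 686.6 in fetal ductus, 2501.7 in newborn aorta and 592.5 in fetal aorta. Both newborn vessels were far above the 3 fetal ones. Newborn over fetal it was 4.92-fold higher in ductus, the 3rd highest of 7551 genes, and 4.22-fold higher in aorta, the 21st of 7676. The second probe set made from the same transcript, D12769_at, gave 4.51-fold and 3.72-fold. Another, rc_AI071565_s_at, passed the floor only in newborn ductus (298.6) and gave at least 1.23-fold there. Averaged over its probe sets, that bound included, the ductus log2 ratio of Klf9 was 1.59, below that of Fkbp5 (1.88).

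Cebpb encodes a leucine zipper transcription factor of acute responses and of fat and liver cells. Its signals were 928.5 in newborn ductus, 447.8 in oxygen-exposed ductus, 354.9 in fetal ductus, 787.5 in newborn aorta and 233.2 in fetal aorta. It was 2.62-fold higher after birth in ductus and 3.38-fold higher in aorta, and the newborn vessels differed little (1.18-fold). The other Cebpb probe set, S77528cds_s_at, passed the floor only in newborn aorta, at 152.0.

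Glul encodes glutamine synthetase. It read 3055.2 in newborn ductus, 796.8 in oxygen-exposed ductus, 837.7 in fetal ductus, 3521.8 in newborn aorta and 1584.0 in fetal aorta. The newborn vessels were nearly level, while fetal ductus was 1.89-fold lower than fetal aorta, so that the birth difference was 3.65-fold in ductus and 2.22-fold in aorta. All 5 Glul probe sets were higher after birth in both vessels, with log2 ratios of 0.68 to 1.87 in ductus and 0.34 to 1.33 in aorta. At rc_AA852004_s_at and rc_AI012265_i_at fetal ductus was under the floor, so the vessels' birth ratios cannot be ranked there. At the other 3 the ductus ratio was the larger.

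Errfi1 encodes an inhibitor of the epidermal growth factor receptor. It read 13626.1 in newborn ductus, 3492.9 in oxygen-exposed ductus, 4610.1 in fetal ductus, 6150.6 in newborn aorta and 2826.7 in fetal aorta. Newborn ductus stood above all other states. The birth difference was 2.96-fold in ductus and 2.18-fold in aorta. At X07266cds_s_at the signals were 2897.7 in newborn ductus, 399.9 in oxygen-exposed ductus, 783.9 in fetal ductus, 1245.0 in newborn aorta and 762.6 in fetal aorta. There the birth log2 ratio was 1.89 in ductus and 0.71 in aorta, a wider gap between the vessels than at the brightest probe set. All 4 Errfi1 probe sets were higher after birth in ductus, and 3 of 4 in aorta.

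Fkbp5 encodes an Hsp90 co-chaperone that lowers the receptor's affinity for hormone and is itself a sensitive target of it. Its signals were 1612.0 in newborn ductus, 370.6 in oxygen-exposed ductus, 438.1 in fetal ductus, 511.1 in newborn aorta and 347.1 in fetal aorta. Only the newborn ductus array was high. It was 3.68-fold above fetal ductus, the 10th highest of 7551 genes, while the aorta differed by 1.47-fold. Newborn ductus exceeded newborn aorta by 3.15-fold, the 8th highest of 7528 genes. A second Fkbp5 probe set, rc_AA998258_at, was under the floor of 241.7 in all states. It read 223.7 in newborn ductus and 106.7 in fetal ductus, against 149.3 in newborn aorta and 80.3 in fetal aorta. Without the floor its birth ratios were 2.1 in ductus and 1.86 in aorta, and the newborn vessels differed by 1.5-fold. The gap between the vessels was much smaller there than at the brightest probe set.

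Pdk4 encodes a kinase that shuts off pyruvate dehydrogenase and so spares glucose. It read 768.5 in newborn ductus, 156.9 in oxygen-exposed ductus, 169.1 in fetal ductus, 343.0 in newborn aorta and 161.4 in fetal aorta. The 3 fetal arrays were under the floor of 243.0. Newborn ductus was at least 3.16-fold above fetal ductus, newborn aorta at least 1.41-fold above fetal aorta, and the newborn vessels differed by 2.24-fold. Without the floor the birth ratios were 4.54 in ductus and 2.13 in aorta. With the floor at the 65th percentile of the chip the ductus log2 ratio was at least 0.85, under the 2-fold mark. A second Pdk4 probe set, AF034577_at on chip A, was under the floor of 149.8 in all states. It read 72.7 in newborn ductus and 72.2 in newborn aorta, against 10.7 in fetal ductus and 10.1 in fetal aorta. The newborn vessels did not differ there.

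Sgk1 encodes a kinase that keeps sodium channels at the cell surface. It read 404.6 in newborn ductus, 188.2 in oxygen-exposed ductus, 247.8 in fetal ductus, 460.2 in newborn aorta and 276.5 in fetal aorta. It was higher after birth by nearly the same amount in both vessels, 1.63-fold in ductus and 1.66-fold in aorta, under the 2-fold mark.

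Cebpd, which encodes a relative of the Cebpb product, depended on the probe set. The brightest one, rc_AI029484_at, read 1104.9 in newborn ductus, 1476.9 in oxygen-exposed ductus, 1123.2 in fetal ductus, 1084.4 in newborn aorta and 1138.1 in fetal aorta, with birth log2 ratios of -0.02 in ductus and -0.07 in aorta. At M65149_at the signals were 322.7 in newborn ductus, 131.8 in oxygen-exposed ductus, 134.7 in fetal ductus, 327.2 in newborn aorta and 193.5 in fetal aorta. There both newborn vessels were high, at least 2.15-fold in ductus and 1.69-fold in aorta. Another, rc_AA946292_at, was flat across birth (1.06-fold and 1.15-fold) and lowest in oxygen-exposed ductus, at 251.5 against 466.7 in fetal ductus. The remaining one, rc_AI045030_s_at, was under the floor in all states. Which of these probe sets reads the Cebpd transcript was not tested.

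Counted over the 10 genes, chosen with earlier results of these data known, 6 were at least 2-fold higher in newborn than in fetal ductus and 0 were lower. Of 7551 genes measured in that comparison, 1.72% were 2-fold higher and 1.79% lower. The count was 5 of 9 with the floor at the 65th percentile. The median log2 ratio was 1.48 for the 10 genes and -0.05 for all genes. Between newborn and fetal aorta 4 of the 10 were at least 2-fold higher (Klf9, Cebpb, Glul and Errfi1) and 1 was lower (Hsd11b1), against 2.12% higher and 2.71% lower of 7676 genes. There the medians were 0.65 and -0.05. These 4 genes were at least 2-fold higher in both vessels, and 41 of the 7278 genes measured in both were so. When all measured probe sets of a gene were averaged, the aortic count became 1 higher (Klf9) and 1 lower.

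The floored birth log2 ratio was larger in ductus than in aorta for 8 of the 10 genes. The gap was at least 1 for 3 of them. It was 1.32 for Fkbp5 and, as a bound set by the floor in fetal ductus, at least 1.98 for Hsd11b1. For Pdk4 both fetal arrays were at the floor, so its 1.16 is the newborn ductus over newborn aorta ratio and does not measure a gap. At the 65th percentile floor neither Hsd11b1 nor Pdk4 gave a value. The floored gap was at least 1 in this direction for 2.65% and in the opposite direction for 1.96% of 7278 genes. The median gap was 0.42 for the 10 genes and 0.01 for all genes. It was 0.71 for Glul, 0.44 for Errfi1, 0.40 for Nr3c1, 0.22 for Klf9, 0.05 for Cebpd, -0.03 for Sgk1 and -0.37 for Cebpb. With probe sets averaged the Klf9 gap was -0.40, but that ductus mean took in a probe set, at its bound, that was not measured in aorta. With 1 array per state this gap is the only residual of the fit, and no test of it can be had.

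**Figure D2:**
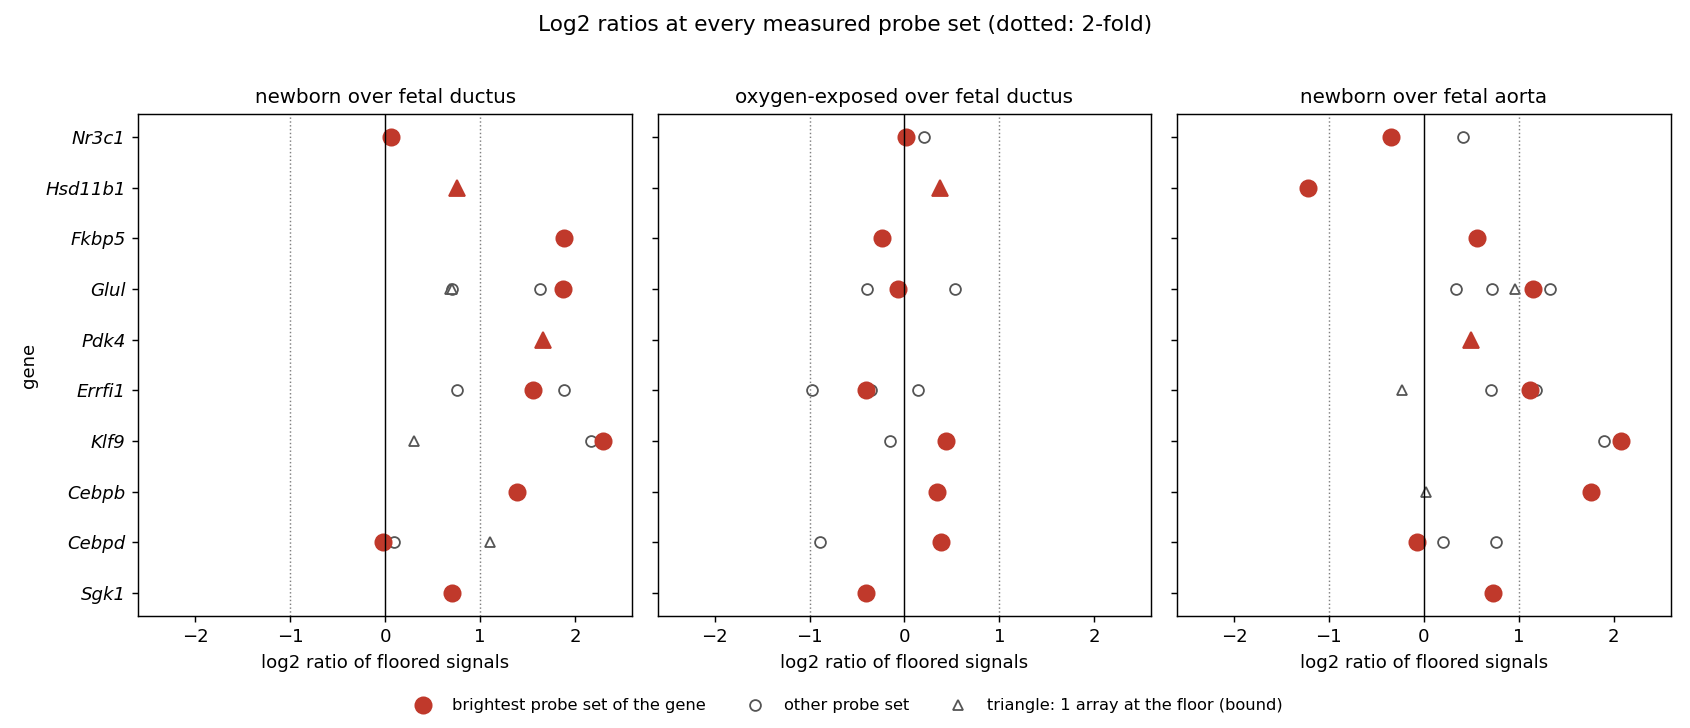
Log2 ratios (horizontal axis) of newborn over fetal ductus, oxygen-exposed over fetal ductus and newborn over fetal aorta for every measured probe set of the 10 genes (vertical axis). Large filled symbols are the brightest probe sets, small open ones the others, triangles are values with 1 array at the floor, and dotted lines mark 2-fold. Birth ratios of the targets lie mainly to the right of 0 in both vessels, up to 2.30 for Klf9 in ductus, and no oxygen ratio reaches 2-fold.

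In oxygen-exposed ductus all 9 measured genes were within 2-fold of fetal ductus. Of 7457 genes, 0.469% were 2-fold higher and 0.858% lower. The log2 ratios ran between -0.40 (Errfi1 and Sgk1) and 0.44 (Klf9), with a median of 0.02 for the 9 genes and 0.04 for all genes. Fkbp5 was at -0.24 and Glul at -0.07, and Pdk4 was under the floor in both arrays. The lowest value at any probe set was -0.97, for Errfi1 at X07266cds_s_at. With an SD near 0.30 for such a ratio and 1 array, changes of the order of 1 SD cannot be told from noise. The -0.97 of Errfi1 at X07266cds_s_at and the -0.89 of Cebpd at rc_AA946292_at were larger than that. The brightest probe sets of these genes were at -0.40 for Errfi1 and 0.39 for Cebpd. Each ratio rests on 1 array per state and cannot be tested as a pair. How large a change would have been detected was not tested.

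Set against oxygen-exposed ductus, newborn ductus was at least 2-fold higher for 7 of the 10 genes and lower for 0, where 2.59% of 7534 genes were higher and 3.24% lower. These were the 6 of the comparison with fetal ductus and Sgk1 (2.15-fold). With the floor at the 65th percentile the count was 5, with Sgk1 at 0.44 and Pdk4 at 0.85 on the log2 scale, and with quantile normalization it was 6, with Sgk1 at 0.92. Fkbp5 was 4.35-fold higher (the 3rd highest of 7534 genes), Errfi1 3.90-fold, Glul 3.83-fold and Klf9 3.63-fold. This comparison shares the newborn ductus array with the birth comparison, and the oxygen comparison shares the fetal ductus array with it, so they are not independent.

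Between the vessels before birth, 1 of 9 measured genes was 2-fold apart, Hsd11b1, which was lower in fetal ductus, where 0.959% of 7610 genes were higher and 0.959% lower. With the floor at the 65th percentile of the chip, Hsd11b1 was at -0.86 and 0 genes were 2-fold apart. After birth 3 of 10 were at least 2-fold higher in newborn ductus than in newborn aorta (Fkbp5, Pdk4 and Errfi1) and 0 were lower, against 1.25% higher and 1.18% lower of 7528 genes. With quantile normalization the count was 2, with Errfi1 at 0.85 on the log2 scale, and with the floor at the 65th percentile it was also 2, with Pdk4 at 0.85. Fkbp5 differed by 3.15-fold between the newborn vessels and by 1.26-fold between the fetal ones.

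An additive limma model of stage and vessel over newborn and fetal ductus and newborn and fetal aorta gave the one test the design allows, with 1 residual degree of freedom per probe set and spread shared over all probe sets. It called a birth effect for 6 of 21 measured probe sets of these genes, all higher after birth, at an adjusted p (Benjamini-Hochberg over the chip) under 0.05. Over all 13810 probe sets tested, 0.956% were called higher and 0.731% lower. Since the genes were chosen with earlier results of these data known, this contrast is a description. Klf9 rose at both its chip A probe sets, by 2.19 ± 0.20 (log2, SE; limma adjusted p = 0.0063) and 2.03 ± 0.20 (limma adjusted p = 0.0078). Cebpb rose by 1.57 ± 0.20 (limma adjusted p = 0.016). Glul rose by 1.51 ± 0.23 at its brightest probe set (limma adjusted p = 0.025) and by 1.48 ± 0.20 at M91652complete_seq_at (limma adjusted p = 0.017). Errfi1 rose by 1.36 ± 0.20 at rc_AI169756_s_at (limma adjusted p = 0.023), while its brightest probe set, at 1.34 ± 0.20, missed the threshold (limma adjusted p = 0.056). In both vessels each of these called probe sets was higher in the newborn array.

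The remaining targets did not pass. Fkbp5 had a birth effect of 1.22 ± 0.31 (limma adjusted p = 0.13) and Pdk4 of 1.08 ± 0.28 (limma adjusted p = 0.14). Sgk1 had 0.72 ± 0.19 (limma adjusted p = 0.098). Cebpd had 0.93 ± 0.20 at M65149_at (limma adjusted p = 0.056) and -0.05 ± 0.22 at its brightest probe set (limma adjusted p = 0.94). With the floor at the 25th percentile of each chip, limma called 0 of 27 probe sets of these genes (18 at an unadjusted p under 0.05), and 0 of all 20495 tested (2718 at an unadjusted p under 0.05).

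For the vessel effect limma called 0 of the 21 probe sets, with 7 at an unadjusted p under 0.05, where 0.0145% of all were called higher and 0.0217% lower in ductus. The effect, ductus over aorta, was 0.93 ± 0.20 for Errfi1 at its brightest probe set (log2, SE; limma adjusted p = 0.41), 1.00 ± 0.31 for Fkbp5 (limma adjusted p = 0.58) and -0.86 ± 0.41 for Hsd11b1 (limma adjusted p = 0.74). For oxygen, in a fit over all 5 arrays of a chip, limma called 0 of the 21, with 2 at an unadjusted p under 0.05, where 0% of 14055 were called higher and 0.0213% lower. Those 2 were Errfi1 at X07266cds_s_at (-1.27 ± 0.38, limma adjusted p = 0.29) and Cebpd at rc_AA946292_at (-0.86 ± 0.25, limma adjusted p = 0.28). Oxygen-exposed ductus is 1 array, assumed here to vary like the other 4, so these values do not show that oxygen had no effect. This oxygen effect is taken against the fitted fetal ductus, which differs from the measured array where the vessels' birth ratios differ.

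**Figure D3:**
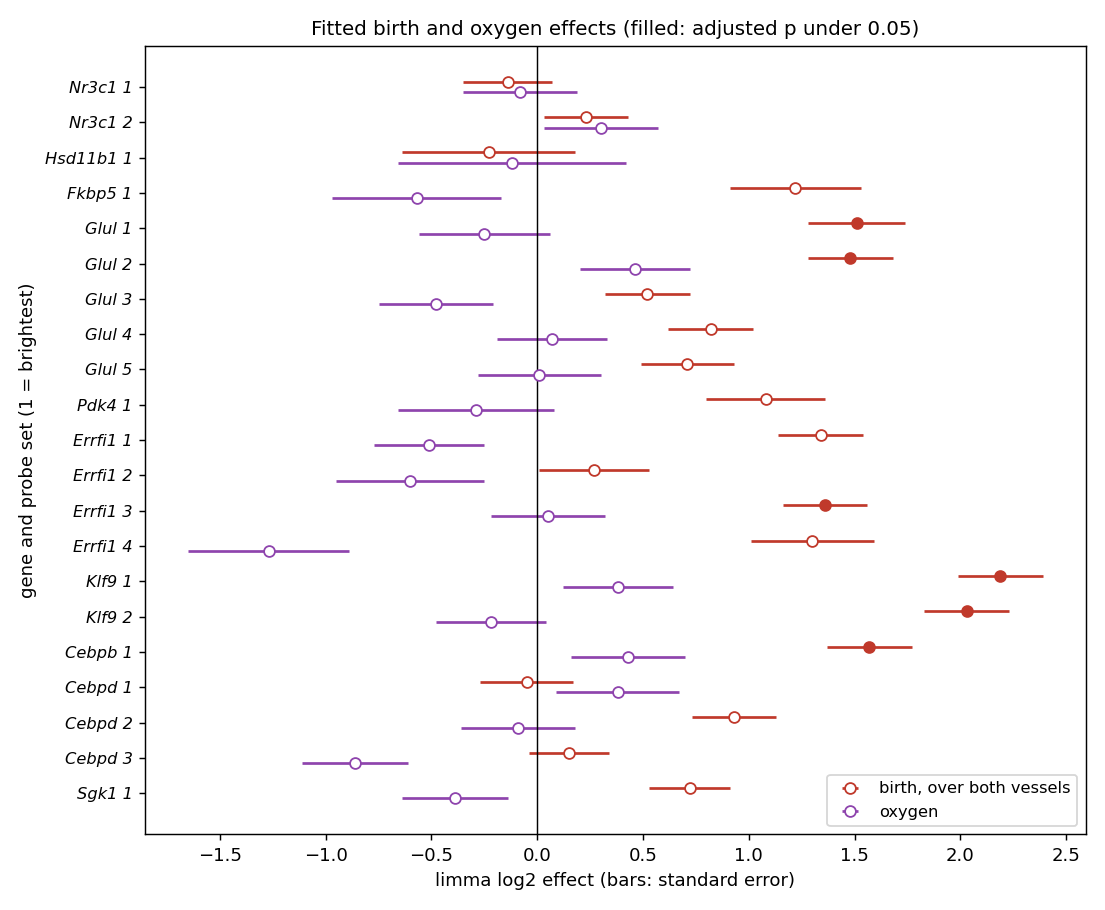
Limma log2 effects with standard errors (horizontal axis) for the 21 measured probe sets of the 10 genes (vertical axis, numbered within a gene with 1 the brightest), for birth over both vessels and for oxygen. Filled points have an adjusted p under 0.05. The 6 filled points, of Glul, Errfi1, Klf9 and Cebpb, are birth effects between 1.36 and 2.19, and no oxygen effect is filled.

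Of 44 other genes listed as glucocorticoid-induced, 33 had a probe set on the chips and 20 were measured in the birth comparison of the ductus, where 5 were at least 2-fold higher and 1 lower (1.72% and 1.79% of all genes). Their median log2 ratio was 0.73, against -0.05 for all genes. This list too was chosen with earlier results of these data known. Nfkbia, the inhibitor of NF-kappaB, read 2311.6 in newborn ductus, 779.6 in oxygen-exposed ductus, 871.0 in fetal ductus, 2082.3 in newborn aorta and 1075.5 in fetal aorta. Tsc22d3, which encodes the leucine zipper protein GILZ, read 1215.4 in newborn ductus, 656.1 in oxygen-exposed ductus, 483.3 in fetal ductus, 850.6 in newborn aorta and 463.4 in fetal aorta. Both were higher in each newborn vessel than in its fetal counterpart, with the larger birth log2 ratio in ductus (1.41 for Nfkbia and 1.33 for Tsc22d3, against 0.95 and 0.88 in aorta). Sesn1, a stress-induced regulator of growth signalling, had birth log2 ratios of 1.36 in ductus and 0.46 in aorta. Fam107a was at 1.23 in ductus and 1.19 in aorta, and Anxa1, which encodes the anti-inflammatory protein annexin A1, at 1.17 in ductus and 0.51 in aorta. Cdkn1c, which encodes the cell cycle inhibitor p57, went the opposite way. It read 2652.7 in newborn ductus, 8360.4 in oxygen-exposed ductus, 7369.5 in fetal ductus, 3263.7 in newborn aorta and 9458.3 in fetal aorta, lower in both newborn vessels.

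In aorta 2 of 24 measured genes of this list were at least 2-fold higher after birth (Pck1 and Fam107a) and 1 lower (Cdkn1c), against 2.12% and 2.71% of all genes, with a median of 0.40. Under oxygen 0 of 19 were 2-fold apart once signals were raised to the floor, near the background of 0.469% higher and 0.858% lower, with a median of 0.08. For Angptl4 this is not settled, since its ratio of 1.97-fold higher is a lower bound. It read 476.8 in oxygen-exposed ductus, while fetal ductus (225.5) and newborn ductus (178.1) were under the floor of 241.7. Dusp1, the phosphatase that quiets MAP kinases, had a birth log2 ratio of 0.77 in ductus and 0.63 in aorta, and -0.43 under oxygen. Ddit4 was at 0.95 in ductus and -0.20 in aorta. Of the genes that supply or remove the hormone, 12 of 17 listed were on the chips and 2 were above the floor in any state, H6pd, which feeds cofactor to the Hsd11b1 enzyme, and Akr1c14, with birth log2 ratios of 0.04 for H6pd in aorta and 0.20 for Akr1c14 in ductus. The mineralocorticoid receptor gene Nr3c2, the inactivating enzyme gene Hsd11b2 and the hormone-carrier gene Serpina6 were under the floor in all 5 states.

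Of 10 measured chaperone genes of the receptor 0 were 2-fold apart at birth in either vessel, a count near the background of 1.72% higher and 1.79% lower in ductus and 2.12% and 2.71% in aorta. Fkbp4, the co-chaperone that counters Fkbp5, had birth log2 ratios of 0.06 in ductus and 0.08 in aorta, and Ptges3, the co-chaperone p23, of -0.64 and -0.44. Ppp5c was at -0.52, Hspa4 at 0.40 and Ppid at 0.36 in ductus. Of 9 measured coregulators 0 were 2-fold apart in ductus and 1 in aorta, Ncoa2 at 1.03. The largest birth log2 ratios of coregulators in ductus were those of Ncoa3 (0.70), Smarca4 (-0.38), Ncor1 (0.37) and Crebbp (-0.27).

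**Figure D4:**
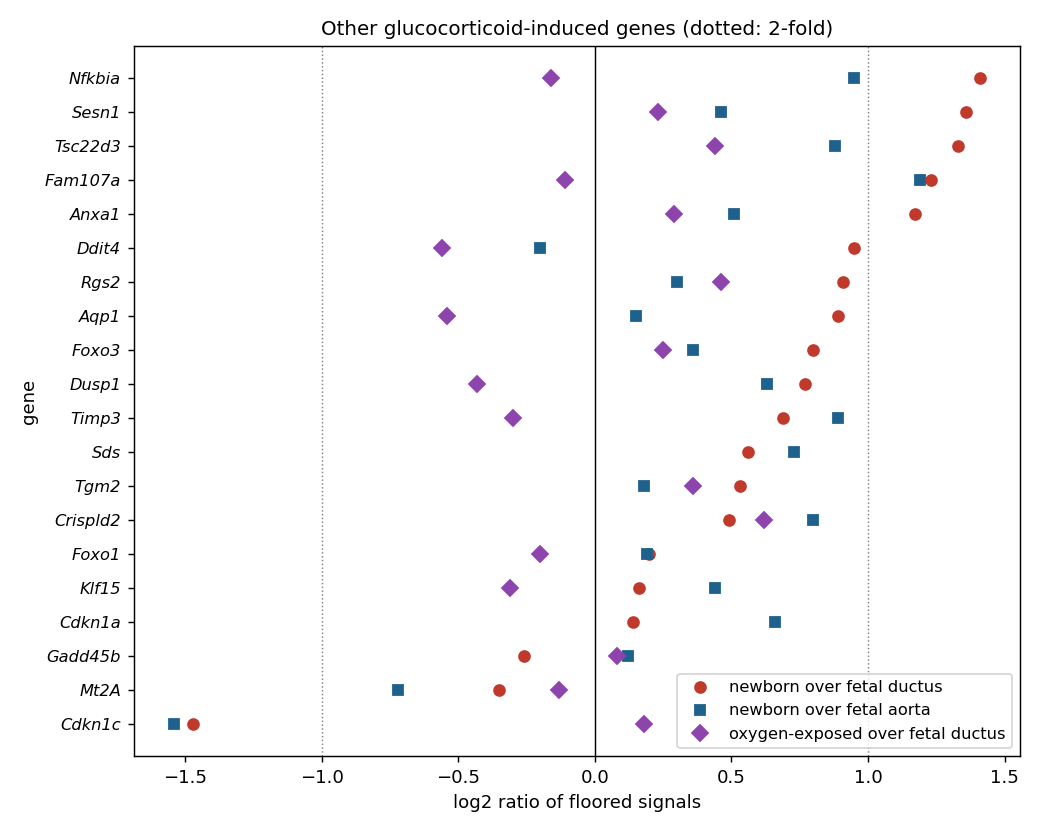
Log2 ratios (horizontal axis) of newborn over fetal ductus (circles), newborn over fetal aorta (squares) and oxygen-exposed over fetal ductus (diamonds) for the 20 other listed glucocorticoid-induced genes measured in both birth comparisons (vertical axis, ordered by the ductus ratio). Ratios with an array at the floor are drawn at their bound, and dotted lines mark 2-fold. The circles reach 1.41 for Nfkbia, and Cdkn1c is lowest in both vessels.

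By the distance between centred log2 profiles over the 5 states, among 7153 genes above the floor in at least 3 states, the genes most like the mean of the 8 targets were Junb (distance 0.24), Rnf19b (0.26), Tnfrsf11b (0.27), Sod3 (0.28) and Mef2c (0.30). Junb, an immediate early transcription factor gene, read 444.2 in newborn ductus, 96.7 in oxygen-exposed ductus, 179.5 in fetal ductus, 337.4 in newborn aorta and 134.3 in fetal aorta. The profiles were made from signals raised to the floor. Junb was under it in oxygen-exposed ductus and fetal aorta, and Mef2c in oxygen-exposed and fetal ductus, so their likeness there depends on the floor. Most like Hsd11b1 were Ahsp (0.41), Mapkapk3 (0.43), Emilin2 (0.48), Adipor2 (0.48) and Adrb3 (0.58), all with their highest signal in fetal aorta. Ahsp encodes a globin chaperone of red cell precursors. These are 5 points per gene from shared arrays, given as a description.

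Cell type markers differed across birth as well. Smooth muscle markers were above the floor for 7 of 7 genes in every state, with summed signals of 98851 in newborn ductus, 68612 in oxygen-exposed ductus, 65208 in fetal ductus, 59228 in newborn aorta and 43198 in fetal aorta. Des, which encodes desmin, had the largest ductus birth log2 ratio of them, 1.77, before Mylk (0.76), Actg2 (0.65) and Acta2 (0.59). In newborn aorta 9 of 11 fat markers were above the floor and summed to 25431, against 4 of 11 and 2149 in fetal aorta, with Fabp4 at 3489.0 in newborn aorta and 123.4 in fetal aorta. Fat cells use Cebpb, Glul and Pdk4, and the part of fat RNA in the aortic birth differences was not tested. In the ductus the fat sums were 2842 in newborn, 1587 in oxygen-exposed and 2095 in fetal vessels. Of the 5 fat markers measured across birth in ductus, 4 were higher in newborn ductus and Lipe was lower, with a median log2 ratio of 0.93 against -0.05 for all genes. Car3 was 2.58-fold higher, Lpl 1.91-fold, Cidea 1.84-fold and Fabp4 at least 1.95-fold, and the part of fat RNA in the ductus differences was not tested either. Adipoq was under the floor in all 3 ductus states. Heart muscle markers summed to 7594 in newborn ductus, 19697 in oxygen-exposed ductus and 24332 in fetal ductus. Of these markers 7 of 9 were at least 2-fold lower in newborn than in fetal ductus, against 1.79% of all genes. The part of heart muscle RNA in the ductus differences was not tested. Endothelial markers summed to 9091 in newborn ductus, 6420 in oxygen-exposed ductus, 6109 in fetal ductus, 9640 in newborn aorta and 6809 in fetal aorta. Their median birth log2 ratio was 0.61 in ductus and 0.50 in aorta, and the part of endothelial RNA in the birth differences was not tested. Over the 5 states the other lists had summed signals of 39636 to 60773 (red cells), 3096 to 4683 (leukocytes) and 3328 to 4745 (nerve and chromaffin cells).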

How the data were processed

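RNA of newborn, oxygen-exposed and fetal ductus and of newborn and fetal aorta was measured on 3 Affymetrix chips, 15 arrays. The deposited values are linear signal intensities, 1 per probe set. MAS5 is named for 4 of the 5 chip A arrays, per the submitters' processing notes. The software for the others is not given in the sources used here. Every array's trimmed mean was near one value, so the authors' scaling was kept.

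Probe sets were named from the platform annotation (18178 with 1 gene, 391 with several, 7633 with none). Signals were raised to the chip median, then log2-transformed. A gene was read at the probe set with the highest mean signal, and a pair counted as 2-fold apart if at least 1 array was above the floor. Limma 3.58.1 (R 4.3.3) fitted stage plus vessel over 4 arrays a chip (5 for oxygen), on probe sets above the floor in at least 2 arrays. The fit was tested on simulated data. Groups hold 1 array each, so replicates could not be compared, and intensities give no counting depth: the number of arrays limits the precision.

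The 10 genes and all lists were chosen with earlier results of these data known. The 10 genes were named whatever they showed, though not each of their probe sets. Also named were up to 4 genes with the largest ductus birth difference, from each pathway list and from the smooth muscle and fat lists. Added to these were 8 fixed genes such as Tsc22d3 (Per1 was not analysed here) and the 5 genes most alike in profile. The rule also covered the other marker lists, but the genes it picked there are not named, except Ahsp, which is named for its profile. Ddit4, Fam107a, Anxa1, Pck1, Angptl4, Ncoa2, Alb, Adipoq and Cidea were named after their values were seen. Alternatives were another floor, quantile normalization, averaged probe sets, an intensity trend, robust estimation and no filter.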

Additional observations from a re-analysis of the deposited data

Results flagged for a closer look

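Hsd11b1 had opposite birth differences in the vessels, higher in newborn than in fetal ductus (252.9 against 140.8, at least 0.76 on the log2 scale) and lower in newborn than in fetal aorta (230.7 against 539.2, -1.22). The ductus minus aorta difference of these log2 ratios was at least 1.98, since fetal ductus was under the floor of 149.8. With the floor at the 65th percentile the aortic ratio was -0.86, under the 2-fold mark, and the ductus ratio and the difference could not be measured. The result rests on 1 probe set and 1 array per state, and the difference was not tested.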

How the results depend on the processing

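The counts of genes 2-fold apart kept within 1.5 times of their value with floors at the 25th and 65th percentile, quantile normalization and averaged probe sets, with 2 exceptions. Averaging probe sets gave 2 genes in the aortic birth comparison in place of 5, and the floor at the 65th percentile gave 0 in place of 1 between the fetal vessels. For birth, limma called 0 probe sets with the floor at the 25th percentile (18 of 27 at an unadjusted p under 0.05), and 10 in place of 6 with an intensity trend. For the vessel effect the trend gave 1 in place of 0. The cause was not tested. Of 263 values of single genes under an alternative, 228 moved by less than 1 SD, 35 moved by more and 0 called values changed sign. Averaging probe sets turned the vessel gap of Klf9 to -0.40 and that of Cebpb to 0.50, but the probe sets averaged were not the same in the vessels. For Klf9, rc_AI071565_s_at (at least 0.30) entered the ductus mean only. For Cebpb, S77528cds_s_at (at least 0.02) entered the aortic mean only. At the Klf9 probe sets measured across birth in both vessels the gap was 0.22 and 0.28. No paired analysis was possible because each group holds 1 array. With 1 array per state, differences of the order of 1 SD of a log2 ratio (0.29 to 0.33) cannot be told from noise, and this SD is not a detection limit. Pdk4 in the fetal vessels and Hsd11b1 in fetal ductus were limited by the floor.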
